A study of Mus musculus with 12 samples.

Results

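Galectins are secreted and cytosolic lectins that bind β-galactosides on glycoproteins and glycolipids, and that are sorted into families by how their carbohydrate recognition domains are arranged. Prototype galectins carry one such domain and pair up, the chimera galectin has a long tail through which it assembles into larger complexes, and tandem-repeat galectins join a pair of different domains in one chain. Outside the cell they cross-link receptors at the surface of macrophages and other cells, and inside the cell they recognise glycans that become exposed when a vesicle is damaged. Macrophages, from which osteoclasts form, are a well known source of galectin-3.

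The genes described here were 5 of the 47643 genes in the count table, chosen by name: Lgals1 (prototype), Lgals3 (chimera), Lgals8 and Lgals9 (both tandem-repeat), and Lgals3bp, which encodes a secreted glycoprotein that galectins bind. They were selected because Lgals1 was higher in both stimulated groups than in the control, so their differences from the control are given as a description, with no p-value. Where a count of members past the cut-offs is given for the control, nothing is read from it. The comparison between both stimulated groups was not used for that choice and was tested. All 5 passed the filter on low counts.

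RNA was sequenced from 12 cultures of monocytes from the bone marrow of wild-type BALB/c mice (BMMs), all grown into osteoclasts with M-CSF and RANKL and harvested on day 3. The 4 OCsCtr cultures received nothing else. The 4 OCsEo cultures received eosinophils at a BMM to eosinophil ratio of 1:2, for the first 48 h, and were then washed. The eosinophils had been sorted from IL-5tg/4get mice, in which excess IL-5 makes eosinophils abundant, with blood and marrow pooled. The 4 OCsEoS cultures received the supernatant of such eosinophils at a 1:2 dilution for the same 48 h. Nothing in the labels ties a culture to one BMM donor, so p-values measure the spread between these cultures. Library totals ran from 27837530 to 40327869 counts. In such bulk RNA, fewer cells of a type and less RNA per cell cannot be told apart.

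The labelled cell type was visible in its markers. A list of 10 osteoclast markers held Ctsk (cathepsin K) and Acp5 (TRAP) among others. The 10 summed to 28350 to 34480 CPM (counts per 1000000 counts of the scaled library) in OCsCtr. Their sum was 18090 to 23200 CPM in OCsEo and 14940 to 22160 CPM in OCsEoS, and 8 of the 10 genes were called lower in each stimulated group. The authors had already reported Ctsk, Acp5 and other osteoclast genes as lowered in these data, so these calls are no independent test. "Called" means here an adjusted p under 0.05 over all 13681 genes tested and an absolute log2 fold change over 0.5 (edgeR's quasi-likelihood test, Benjamini-Hochberg adjustment). By that rule 5.88% of all genes were called in OCsEo against OCsCtr, 7.73% in OCsEoS against OCsCtr and 0.38% in OCsEoS against OCsEo. Sums of the markers of other cell types were far lower. Over the 12 libraries they were 21.5 to 36.4 CPM for T cells, 7.42 to 22.2 CPM for B cells, 3.79 to 8.24 CPM for basophils and mast cells, and 12.3 to 69.6 CPM for stromal cells. Most of the T cell sum was Lat, which averaged 29.2 CPM in OCsCtr, 20.7 CPM in OCsEo and 25.45 CPM in OCsEoS. The 9 monocyte and macrophage markers summed to 2218 to 2556 CPM in OCsCtr, 1974 to 2329 CPM in OCsEo and 1763 to 2153 CPM in OCsEoS. Most of this sum was Csf1r, the M-CSF receptor, and Cd68, at 1237 and 753.9 CPM in OCsCtr. The median log2 fold change of the 9 genes was above 0, at 0.20 in OCsEo and 0.25 in OCsEoS. In OCsEoS 3 of the 9 were called: Adgre1 (F4/80) and Mrc1 (CD206) higher, at log2 fold changes of 0.56 and 0.80, and Csf1r lower, at −0.57. In OCsEo 0 of the 9 were called. There Adgre1 stood at 0.465 and Csf1r at −0.445, both past the adjusted p but short of the fold cut-off, and Mrc1 at 0.40. Their part in the galectin values was not tested. Eosinophil and neutrophil markers are given below, beside Lgals1 and Lgals3.

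Per length, Lgals1 and Lgals3 stood far above the rest of the family in every group. On the FPKM scale, which corrects for gene length and library size, the level of Lgals1 averaged 1896 over the 12 libraries, which ranked 32 in the whole table, and that of Lgals3 averaged 1176. Lgals3bp followed at 54.8 FPKM, then Lgals8 at 17.7 FPKM and Lgals9 at 17.6 FPKM. The neighbours Lgals8 and Lgals9 did not differ beyond their spread: Lgals8 lay between 17.97 and 22.04 FPKM in the control and Lgals9 between 8.83 and 21.5 FPKM. The order of the top genes depended on the scale, since Lgals3 is the longer gene and exceeded Lgals1 in CPM, which is not corrected for length.

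Among the rest of the family, only Lgalsl was measured above a few counts. Lgals2 and Lgals4 had 2 counts each, in 1 library each, and Lgals7, Lgals12 and Grifin had 0 counts in all 12 libraries, where 3 counts would correspond to 0.0744 to 0.108 CPM. Lgalsl, which encodes a galectin-like protein without the residues that bind sugar, was the only one of them tested. It averaged 57.5 ± 2.46 CPM in OCsCtr (SD, n = 4), 40.4 ± 2.71 CPM in OCsEo and 41.6 ± 5.39 CPM in OCsEoS. Lgalsl was called lower in OCsEo (log2 fold change −0.51, SE 0.09, edgeR adjusted p = 5.37e-04), while in OCsEoS its adjusted p was 7.31e-04 with a log2 fold change of −0.47, short of the fold cut-off. The call in OCsEo sat at that cut-off, and 4 of 19 alternative fits lost it, with values from −0.55 to −0.48.

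**Figure D1:**
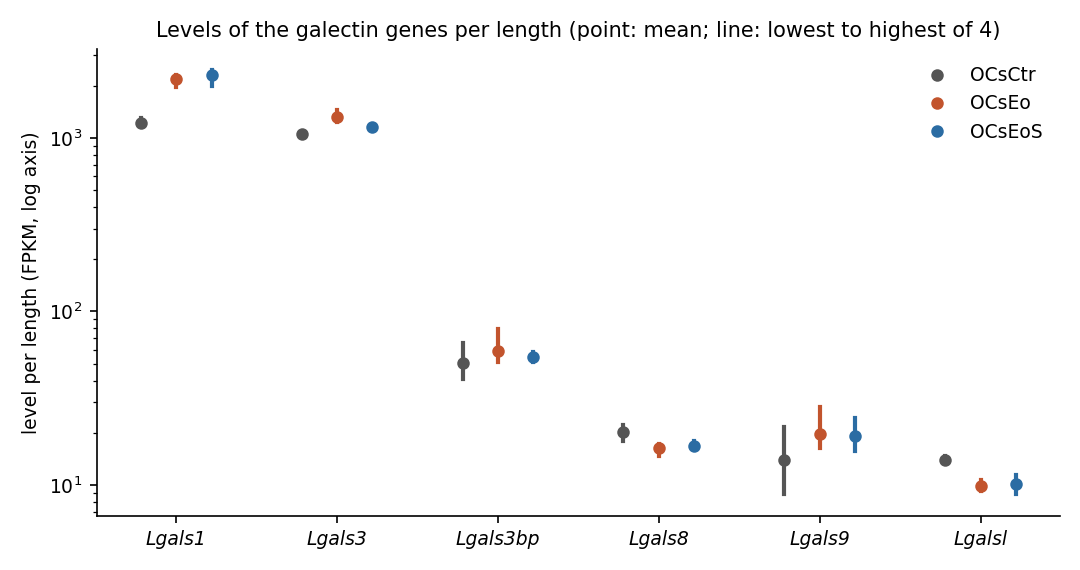
Level per length (FPKM, log axis) of the 5 genes and of Lgalsl, with the mean of each group as a point and a line from the lowest to the highest of its 4 libraries. Lgals1 and Lgals3 lie at 1014 FPKM or more in every library, and Lgals8, Lgals9 and Lgalsl lie between 8.83 and 28.1 FPKM.

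Lgals1 (ENSMUSG00000068220) lies on chromosome 15 at 78926725 to 78930465 on the plus strand (GRCm38, GENCODE vM21) and has 4 exons and 405 coding bases. Galectin-1, its product, is a dimeric lectin that dampens T cell and myeloid activation. In OCsCtr its level was 979.7, 937, 950.5 and 1039 CPM. In OCsEo it was 1694, 1568, 1837 and 1845 CPM. In OCsEoS it was 1906, 1585, 1904 and 1955 CPM. Every stimulated library lay above every control library, and the ranges of both stimulated groups overlapped. The log2 fold change from the control was 0.83 (SE 0.07) in OCsEo, a 1.78-fold level, and 0.91 (SE 0.07) in OCsEoS, a 1.88-fold level. These values chose the gene and are given without a test, and both comparisons share the 4 control libraries.

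The comparison of supernatant with cells, which the choice had not used, did not pass the test for Lgals1. In OCsEoS against OCsEo the log2 difference was 0.08 (SE 0.07), with a 95% interval from −0.06 to 0.22 and an adjusted p of 0.689 (edgeR).

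Eosinophil markers were measured beside Lgals1. The 12 eosinophil markers summed to 60.0 to 77.2 CPM in OCsCtr, 65.1 to 91.4 CPM in OCsEo and 53.6 to 61.0 CPM in OCsEoS, and most of each sum was Ccr3, the eotaxin receptor, at 45.6 to 65.6 CPM. Ccr3 averaged 59.55 CPM in OCsCtr, which received no eosinophils, 48.68 CPM in OCsEo and 50.7 CPM in OCsEoS. In OCsEo 2 of the 6 tested markers were called higher. They were Alox15 and Siglecf, which the authors had already reported in co-cultures of these data, so these calls are no independent test. Alox15, a lipoxygenase abundant in eosinophils, averaged 10.98 CPM in OCsEo against 0.30 CPM in OCsCtr, and Siglecf, the receptor on which eosinophils are sorted, averaged 2.94 against 0.43 CPM. In OCsEoS 1 of the 6 was called, Prg2 (major basic protein), which was lower, and Ear1, Ear6, Epx and Prg3 were at 0 in all 4 libraries. Alox15 and Siglecf were not called there, at 0.67 against 0.30 CPM (log2 fold change 1.14, SE 0.52) and 0.83 against 0.43 CPM (0.94, SE 0.48). Rnase2a, which was too low to be tested, lay between 0.17 and 0.57 CPM in OCsEoS and between 0 and 0.28 CPM in OCsCtr. Whether eosinophil RNA contributed to Lgals1 in either stimulated group was not tested.

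**Figure D2:**
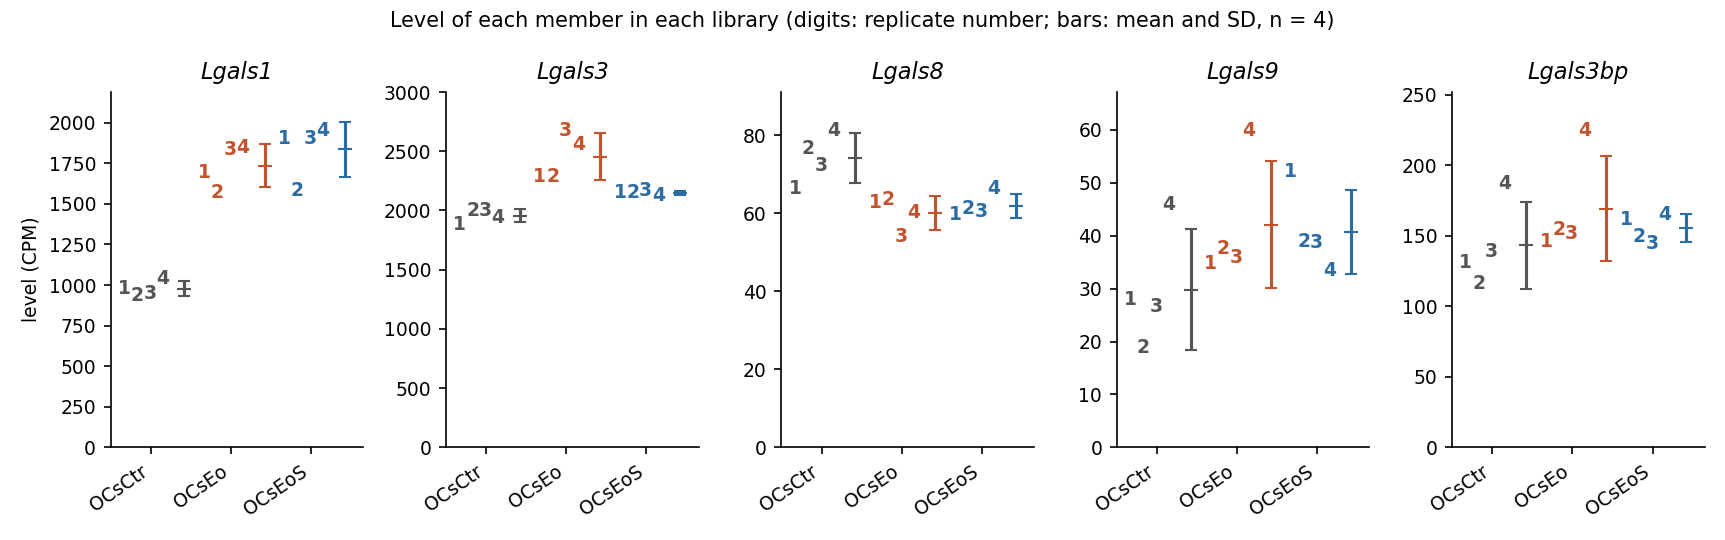
Level (CPM, linear axes from 0) of each gene in each library, with the replicate number as the symbol and the mean and SD of the 4 libraries beside it. Lgals1 separates all stimulated libraries from the control, Lgals3 separates all 3 groups from each other, and Lgals9 and Lgals3bp are highest in replicate 4 of OCsCtr and of OCsEo.

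Lgals3 (ENSMUSG00000050335; chromosome 14, 47367751 to 47386160, plus strand, 6 exons, 792 coding bases) was the most tightly measured gene of the set. Galectin-3 is a marker of macrophages, takes part in phagocytosis and is recruited to damaged lysosomes. Its level in OCsCtr was 1884, 2001, 2001 and 1941 CPM. In OCsEo it was 2286, 2285, 2679 and 2558 CPM. In OCsEoS it was 2148, 2149, 2165 and 2128 CPM. The 3 groups formed separate layers, with the control lowest, the supernatant group in the middle and the co-cultures highest. The log2 fold change from OCsCtr was 0.33 (SE 0.05) in OCsEo and 0.13 (SE 0.05) in OCsEoS, both under the fold cut-off and given without a test.

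Between the stimulated groups, Lgals3 was lower in all 4 OCsEoS libraries than in any OCsEo library. The log2 difference was −0.19 (SE 0.05), a 0.876-fold level, with an interval for this gene alone from −0.30 to −0.08. It did not pass the test over all genes (edgeR adjusted p = 0.126), and the adjusted p ranged from 0.0395 with DESeq2 to 0.327 when the fourth OCsCtr and OCsEo libraries were left out. Groups that do not overlap were found for 5.47% of all tested genes in this comparison. The 12 neutrophil markers moved in the same direction. They summed to 513.7 to 681.6 CPM in OCsEo against 401.3 to 466.6 CPM in OCsEoS and 356 to 504 CPM in OCsCtr, none was at 0, and Mpo, Ngp and Ltf were called lower in OCsEoS than in OCsEo. Of the 6 tested eosinophil markers 2 were called in this comparison, both lower in OCsEoS. Alox15 went from 10.98 to 0.67 CPM (log2 fold change −4.03, edgeR adjusted p = 6.26e-05). The authors had already reported Alox15 and Mpo as detected in the co-cultures, so the calls of both are no independent test. Prg2 went from 5.49 to 0.81 CPM (−2.73, edgeR adjusted p = 0.0261). In OCsCtr, which received no eosinophils, Prg2 averaged 5.53 CPM, so its OCsEo level was also present without them. Ccr3, the most abundant eosinophil marker, was not called, at 0.06, but its mean was highest in OCsCtr, without eosinophils. The part of granulocyte RNA in the Lgals3 difference was not tested.

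Of the 5 genes, 0 were called in OCsEoS against OCsEo by edgeR or by DESeq2, in a comparison where 0.38% of all genes were called. Lgals3 alone had an unadjusted p under 0.05. Against the control, 1 of the 5 was called higher in each stimulated group, which was Lgals1 both times. The share of all genes called higher was 3.27% in OCsEo and 3.63% in OCsEoS. Since Lgals1 was chosen for this, nothing is read from that count. Lgals1, Lgals3 and Lgals8 did not overlap between OCsEo and OCsCtr (21.5% of all genes), and Lgals1 and Lgals3 did not overlap between OCsEoS and OCsCtr (25.7% of all genes).

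The balance between both abundant galectins shifted with these values. In FPKM, Lgals3 stood at 0.865 ± 0.0571 of Lgals1 in OCsCtr (SD, n = 4), at 0.608 ± 0.0233 in OCsEo and at 0.507 ± 0.0522 in OCsEoS. The ratio stayed below 1 in all 12 libraries, and the control range of 0.804 to 0.920 did not touch that of OCsEo (0.581 to 0.628) or of OCsEoS (0.469 to 0.584). As a share of the summed FPKM of Lgals1, Lgals3, Lgals8 and Lgals9, Lgals1 made up 52.9% ± 1.53 in OCsCtr, 61.6% ± 0.867 in OCsEo and 65.7% ± 2.24 in OCsEoS. Lgals8 and Lgals9 each stayed a small part, at most 0.923% and 0.901% in any library. These shares carry the selected rise of Lgals1 and are descriptions.

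Lgals8 (ENSMUSG00000057554; chromosome 13, 12439415 to 12464944, minus strand, 11 exons, 948 coding bases) moved the other way. Galectin-8 detects damaged endosomes and lysosomes and recruits the autophagy machinery. Its level was 66.3, 76.5, 72.1 and 81.3 CPM in OCsCtr. In OCsEo it was 62.6, 63.5, 54.0 and 60.1 CPM, and in OCsEoS 59.6, 61.1, 60.4 and 66.4 CPM. All OCsEo libraries lay below the control, and OCsEoS touched it only where its highest library exceeded the lowest control library. The log2 fold change from OCsCtr was −0.30 (SE 0.08) in OCsEo and −0.26 (SE 0.08) in OCsEoS. Between the stimulated groups the difference was 0.04 (SE 0.08), with an interval from −0.12 to 0.20 (edgeR adjusted p = 0.879). Lgals8 overlaps the protein-coding gene Heatr1 on the opposite strand. Over the 12 libraries Lgals8 had 25985 counts and Heatr1 12078 counts, and the strand setting of the counting is not given in the sources used here, so reads of their overlap could not be assigned with certainty. Lgals8 was also the only one of the 5 with a near copy among annotated transcripts, a processed pseudogene that matched it over 486 bases at 90.3% identity.

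**Figure D3:**
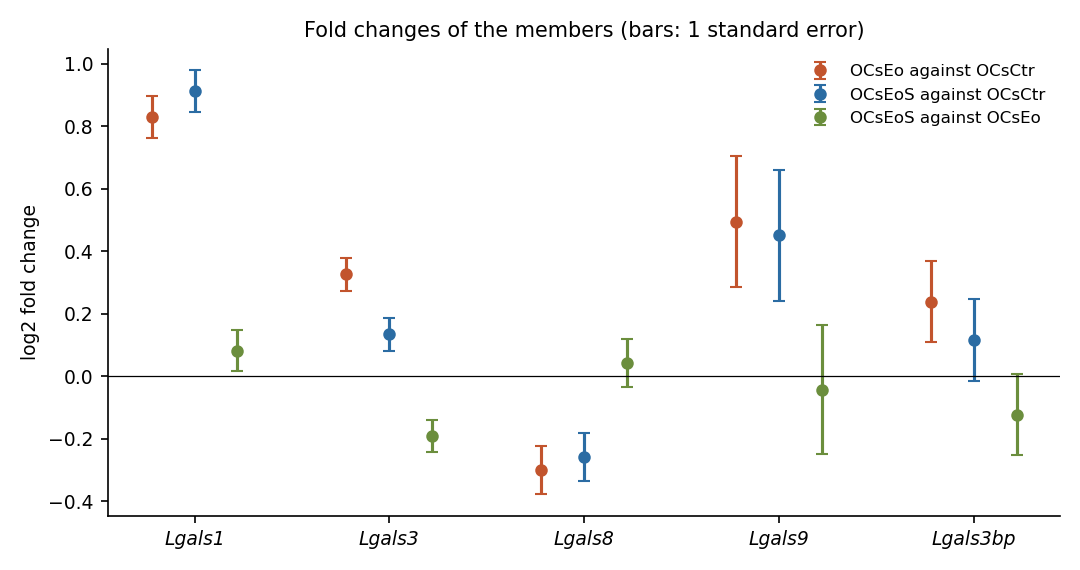
Log2 fold change of each gene in the 3 comparisons, with bars of 1 standard error. Lgals1 lies at 0.83 and 0.91 above the control and near 0 between the stimulated groups, and Lgals3 is the gene whose difference between the stimulated groups, −0.19, is largest relative to its error.

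Lgals9 and Lgals3bp are both known as interferon-inducible genes. AANNGAAA is the core motif that the interferon regulatory factors share. In the RefSeq promoter windows (GRCm38.p6, 250 bases before to 50 bases after the start), 4 of the 5 genes had an entry, all but Lgals1. AANNGAAA, on either strand, was found 3 times in the window of Lgals9, 1 time in that of Lgals3bp and 0 times in those of Lgals3 and Lgals8. Of all 32851 windows 23.9% held it at least 1 time, so a single match is common. The share of windows with 3 matches was not counted, so nothing is read from the 3 in Lgals9. The motif was chosen after the values were seen. The 30 bases around these matches are printed because both genes were high in OCsCtr 4 and OCsEo 4, as was the interferon list described next. In OCsEoS Lgals9 departed from that list. They are written 5′ to 3′ on the strand of the gene, with the match in capitals, and capitals that begin with TTTC are the reverse complement of the motif.
Lgals9, 151 bases before the start, chr11:78985057-78985086, minus strand: cagagcacaggAAGGGAAAgtcaaggcaga
Lgals9, 55 bases before the start, chr11:78984961-78984990, minus strand: ctgacatcagcTTTCTTTTtctctagacac
Lgals9, 15 bases after the start, chr11:78984891-78984920, minus strand: aatagctgtggTTTCTGTTtcctagctcag
Lgals3bp, 14 bases before the start, chr11:118401955-118401984, minus strand: tgttttctgaaAATCGAAActaggtgaggt
A match describes the letters only, and no binding was measured here.

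Lgals9 (ENSMUSG00000001123; chromosome 11, 78962974 to 78984946, minus strand, 11 exons, 1059 coding bases) was the most variable of the 5 genes. Galectin-9 binds Tim-3 (Havcr2) on lymphoid and myeloid cells and shapes immune checkpoints. Its level in OCsCtr was 27.9, 18.9, 26.6 and 45.95 CPM. In OCsEo it was 34.8, 37.6, 35.85 and 59.98 CPM. In OCsEoS it was 52.1, 38.9, 38.8 and 33.4 CPM. Replicate 4 was the highest library of OCsCtr and of OCsEo but the lowest of OCsEoS, and the groups overlapped throughout.

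The log2 fold change of Lgals9 was 0.49 (SE 0.21) in OCsEo and 0.45 (SE 0.21) in OCsEoS, and its size moved with single libraries. Without OCsCtr 4 it was 0.78 and 0.74, without OCsCtr 2 it was 0.33 and 0.29, and without OCsEo 4 the value in OCsEo was 0.275. Without both OCsCtr 4 and OCsEo 4 it was 0.56 and 0.74. Between the stimulated groups its difference was −0.04 (SE 0.21), with an interval from −0.48 to 0.39 and an adjusted p of 0.964 (edgeR).

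Lgals3bp (ENSMUSG00000033880; chromosome 11, 118392751 to 118402092, minus strand, 6 exons, 1731 coding bases) encodes a heavily glycosylated secreted protein that binds galectin-1 and galectin-3. Its level in OCsCtr was 131.4, 116.3, 138.7 and 187.5 CPM. In OCsEo it was 146.3, 154.9, 151.4 and 225.1 CPM, and in OCsEoS 162, 149.8, 144.8 and 165.4 CPM. Replicate 4 was again highest in OCsCtr and in OCsEo, and here also by a small margin in OCsEoS, and all groups overlapped. The log2 fold change from OCsCtr was 0.24 (SE 0.13) in OCsEo and 0.12 (SE 0.13) in OCsEoS. Leaving out OCsEo 4 lowered the value in OCsEo to 0.07, and leaving out OCsCtr 4 raised it to 0.39. In OCsEoS it was 0.03 without OCsCtr 2, 0.07 without OCsCtr 1 and 0.27 without OCsCtr 4. Between the stimulated groups it was −0.12 (SE 0.13), with an interval from −0.39 to 0.15 (edgeR adjusted p = 0.775).

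The libraries in which both genes were high were also those in which interferon-induced genes were high. A list of 22 such genes, with Bst2 and Oas1a the most abundant per length and without Lgals9 and Lgals3bp, deviated on average by 0.62 (log2 CPM) from the group mean in OCsCtr 4 and by 0.53 in OCsEo 4. Lgals9 deviated there by 0.70 and 0.55, and Lgals3bp by 0.41 and 0.43. In OCsCtr 4, 21 of the 22 genes had the highest level of their group, beside 27.0% of all tested genes, and in OCsEo 4 it was 20 of the 22, beside 23.1%. In OCsEoS the list stayed within −0.06 to 0.08 of the group mean in every library, and Lgals9 departed from it, at 0.37 in OCsEoS 1 and −0.27 in OCsEoS 4. Lgals1 deviated by 0.09 in both OCsCtr 4 and OCsEo 4. The part of the interferon genes' variation in the values of Lgals9 and Lgals3bp was not tested.

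**Figure D4:**
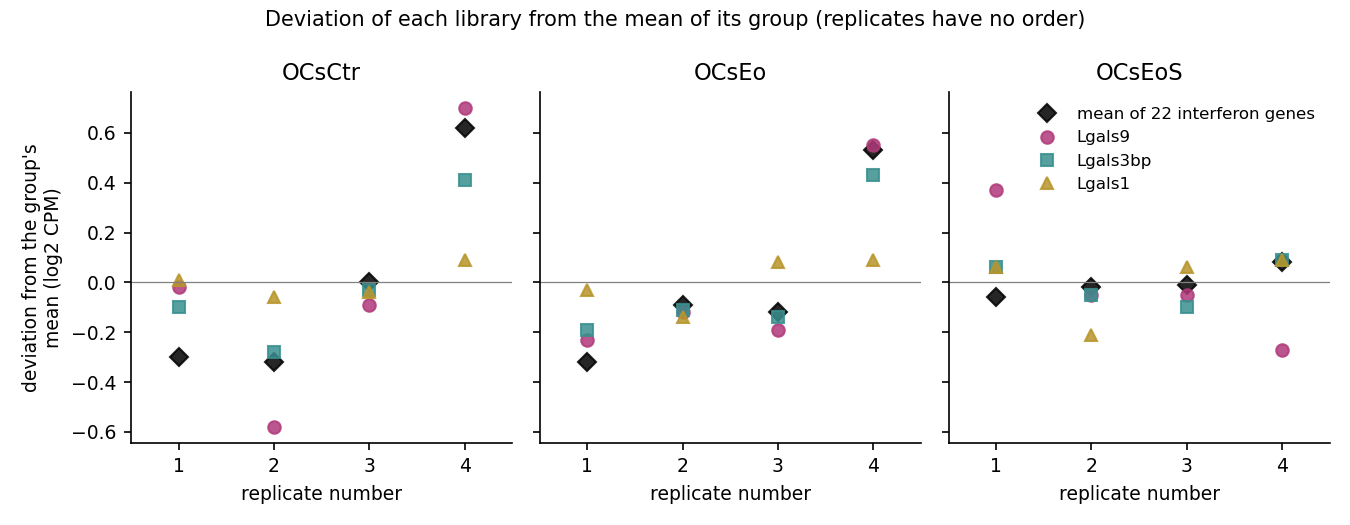
Deviation of each library from the mean of its group (log2 CPM) for the mean of 22 interferon-induced genes (diamonds), Lgals9, Lgals3bp and Lgals1, with 1 panel per group and the replicate number on the horizontal axis. In replicate 4 of OCsCtr and of OCsEo the list, Lgals9 and Lgals3bp lie between 0.41 and 0.70 while Lgals1 lies at 0.09, and in OCsEoS the list stays near 0.

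As a group comparison the interferon list moved little. In OCsEo 1 of the 22 genes was called, as it was in OCsEoS, which is 4.55% beside the 5.88% and 7.73% of all genes. That gene was Cxcl10, a chemokine, at 9.23 CPM in OCsCtr, 14.2 CPM in OCsEo and 13.9 CPM in OCsEoS, and its call was lost in both comparisons without OCsCtr 1 or without OCsCtr 2. The median log2 fold change of the list was 0.17 in OCsEo and 0.16 in OCsEoS, where the median over all genes was −0.01 in both.

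The residual spread of the 5 genes differed widely. The SD of log2 CPM around the group means was 0.07 for Lgals3, 0.10 for Lgals8, 0.11 for Lgals1, 0.24 for Lgals3bp and 0.40 for Lgals9, where the median over 10630 genes of at least a log2 CPM of 1 was 0.16. Of these genes 6.99% had a smaller SD than Lgals3, whereas 74.2% had a smaller SD than Lgals3bp and 93.35% a smaller SD than Lgals9. Lgals9, the gene with the lowest counts, had at least 636 in every library.

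Genes with the most similar course over the 12 libraries were found by the root mean square (RMS) difference of gene-centred log2 CPM among 10625 genes. Closest to Lgals1 were Alox5ap, which encodes the activating protein of leukotriene synthesis, Slc11a1, a metal ion transporter of phagosomes, and Cdkn2d, a cell cycle inhibitor, with RMS differences of 0.06, 0.08 and 0.10 where Lgals1 itself had an RMS of 0.42. Alox5ap had log2 fold changes of 0.90 in OCsEo and 0.96 in OCsEoS. Eosinophils also express Alox5ap, which the eosinophil list above did not hold. Closest to Lgals3bp were Trim30a, Irf9 and Oas3, at 0.08, 0.09 and 0.10, all known as interferon-induced, and Irf9 is also in the list above. The genes nearest to Lgals9, Xdh, Maf and H2-Q4, differed by 0.18 to 0.21, where Lgals9 itself had an RMS of 0.43. Lgals8 was nearest to Zfand5, Map3k2 and Dlat (0.06 to 0.07), with an own RMS of 0.16. Lgals3 was nearest to Pfdn5, Rnf130 and Gpx4 (0.05), but its own RMS was only 0.15. The libraries share their groups and their preparation, so these are descriptions.

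The glycans that galectins bind are built by a small set of glycosyltransferases and hidden by sialyltransferases. In 4 lists of such partner genes, chosen with earlier results of these data known, 61 of 67 genes in the table were tested. Of these, 5 were called higher and 1 lower in OCsEo, and 3 higher and 3 lower in OCsEoS. Both counts make 9.84% of the tested genes, beside 5.88% and 7.73% of all genes, and the median log2 fold changes of −0.03 and −0.06 stood beside −0.01 for all genes. In OCsEoS against OCsEo, 0 of the 61 were called by edgeR or DESeq2, with 5 at an unadjusted p under 0.05. Without OCsEoS 1, the count in OCsEoS was 3 in place of 6.

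Among 20 enzymes of ligand synthesis, 2 were called in OCsEo and 1 in OCsEoS, all higher. B4galt6, a galactosyltransferase that makes lactosylceramide, rose from 19.5 CPM in OCsCtr to 32.7 CPM in OCsEo (log2 fold change 0.74, SE 0.13, edgeR adjusted p = 6.15e-04) and to 30.3 CPM in OCsEoS (0.64, SE 0.13, adjusted p = 0.00155). Gcnt1, which makes the core branch of O-glycans favoured by galectin-1, rose in OCsEo from 4.81 to 7.96 CPM (0.73, SE 0.22, adjusted p = 0.0267), a call that was lost without OCsCtr 2, OCsCtr 4 or OCsEo 1. The most abundant members per length, Mgat2 and Mgat4b, were not called, with log2 fold changes of 0.15 and −0.16 in OCsEo.

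Sialyltransferases, which add sialic acid to glycans, had opposite directions among the 9 tested. St3gal4 rose from 24.3 CPM to 35.6 CPM in OCsEo (log2 fold change 0.55, SE 0.11, edgeR adjusted p = 0.00153) and to 36.7 CPM in OCsEoS (0.59, adjusted p = 5.67e-04). St3gal2 fell from 63.6 CPM to 41.9 CPM in OCsEo (−0.60, adjusted p = 1.48e-04) and to 44.3 CPM in OCsEoS (−0.52, adjusted p = 3.63e-04). St3gal1 fell in OCsEoS from 104.6 to 72.5 CPM (−0.53, adjusted p = 4.88e-05) and stood at −0.49 in OCsEo, just short of the fold cut-off. St6gal1, whose α2,6-linked sialic acid blocks galectin-1 binding, stood at −0.30 in OCsEo (edgeR adjusted p = 0.019) and −0.44 in OCsEoS (adjusted p = 0.00102). It passed the adjusted p in both but not the fold cut-off, so it was not called. St6gal1 was picked for this role after its values were seen. The most abundant per length, St3gal5 and St6galnac4, stood at 0.15 and −0.385 in OCsEo and were not called. Of these, St6galnac4 passed the adjusted p there (edgeR adjusted p = 3.31e-04) but not the fold cut-off. Leaving out OCsCtr 1, OCsCtr 2, OCsEoS 1 or OCsEoS 4 lost the call of St3gal2 in OCsEoS, and leaving out OCsCtr 2 or OCsEoS 1 lost that of St3gal1.

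Of 21 tested binding partners, Trem2 and Lamp1 were called. The authors had already reported Trem2 as raised in both stimulated groups of these data, so its p-values are no independent test. Trem2, a lipid receptor of macrophages and osteoclasts that binds galectin-3, rose from 186.6 CPM to 379 CPM in OCsEo (log2 fold change 1.02, SE 0.06, edgeR adjusted p = 1.27e-09) and to 320.4 CPM in OCsEoS (0.78, SE 0.06, adjusted p = 8.2e-08). Lamp1, the main glycoprotein of the lysosomal membrane, rose from 552.9 to 794.7 CPM in OCsEo (0.52, SE 0.06, adjusted p = 2.73e-06), was lost without OCsCtr 2 or OCsEo 4, and stood at 0.24 in OCsEoS. Between the stimulated groups Lamp1 and Cd63, a tetraspanin of late endosomes, had adjusted p-values of 0.0214 and 0.0395 with log2 differences of −0.28 each, under the fold cut-off. Cd63 and P4hb were the most abundant partners per length and were not called, at 0.05 and 0.00 in OCsEo.

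Genes that act on damaged vesicles marked by galectin-3 and galectin-8 formed the last list. Of 11 tested, 1 was called in OCsEoS, which is 9.09% beside 7.73% of all genes. It was Trim16, which works with galectin-3 at damaged lysosomes, at 15.2 CPM in OCsCtr and 10.8 CPM in OCsEoS (log2 fold change −0.50, SE 0.14, edgeR adjusted p = 0.0154), a value at the cut-off that 7 of 19 alternative fits, DESeq2 among them, did not call. Sqstm1 and Chmp4b, the most abundant of the list per length, stood at −0.12 and −0.08 in OCsEo. In OCsEo 0 of the 11 were called, with Trim16 at −0.43 (edgeR adjusted p = 0.0444). Pdcd6ip, which encodes Alix and helps repair membranes, passed the adjusted p but not the fold cut-off, at −0.23 in OCsEo (edgeR adjusted p = 0.0225) and −0.34 in OCsEoS (adjusted p = 9.51e-04), and was picked after its values were seen.

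**Figure D5:**
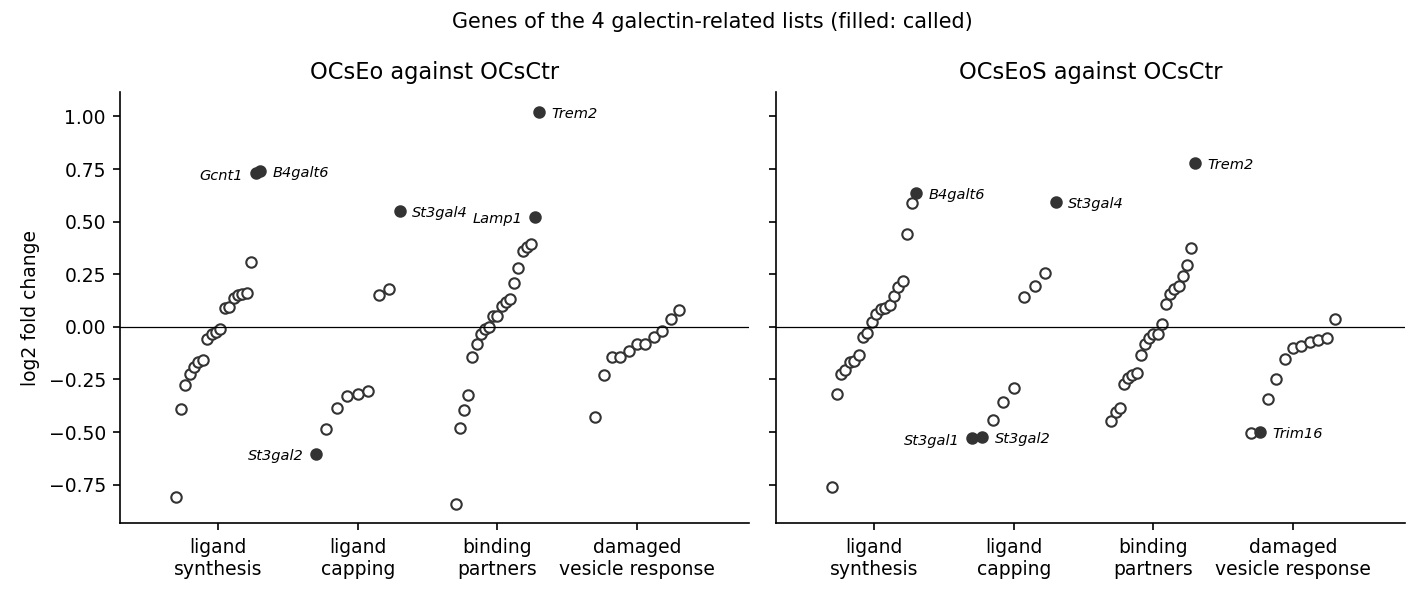
Log2 fold change of each tested gene in the 4 partner lists, against OCsCtr in OCsEo (left) and in OCsEoS (right), sorted by value within a list and filled where called. Trem2 is the highest filled point in both panels, at 1.02 and 0.78, and St3gal4 and St3gal2 are filled on opposite sides of 0 in both panels.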

How the data were processed

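The authors trimmed the reads with fastp, aligned them to mm10 with HISAT2 (version 2.0.5) and deposited raw counts per gene from featureCounts. The strand setting and annotation release are not given in the sources used here. Columns were matched to samples by title. The members and gene lists were chosen with earlier results of these data known, and the promoter motif after the values were seen. Counts of 12 libraries were fitted together with edgeR (version 4.0.16, R 4.3.3) after filterByExpr (minimum count 10) and TMM scaling (factors 0.968 to 1.03). Calls needed an adjusted p below 0.05 and a log2 fold change beyond 0.5 either way. CPM used TMM-scaled library sizes, FPKM the gene lengths in the table, and log2 CPM a prior count of 2. Named by rule were the 5 members, called list genes, the 2 most abundant genes per list and length, and the 3 genes most like each member. Alternatives included DESeq2 (version 1.42.0), other scalings, no filter, 2-group fits, a replicate block and each library left out. Replicate pairs differed beyond sampling noise (chi-square per degree of freedom 10.3 to 36.9 over 18 pairs). Overlaps used GENCODE vM21, and near copies BLAST (version 2.17.0; at least 90% identity over 200 bases). The code was tested on simulated data. Lgals6 and Itgam were not analysed here.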

Additional observations from a re-analysis of the deposited data

Results flagged for a closer look

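In groups of 4 libraries, Dixon's gap ratio marked a library far from the others, which chance does in about 1 in 20 groups. Of the 15 combinations of gene and group examined, 3 were marked. Lgals1 was low in OCsEoS 2, at 1585 CPM. Lgals9 was high in OCsEo 4, at 59.98 CPM, and Lgals3bp was high in the same library, at 225.1 CPM, where 20 of the 22 interferon-induced genes also had their highest level of the group. The cause was not tested.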

How the results depend on the processing

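Against OCsCtr, as a description of the selected gene, the log2 fold change of Lgals1 lay between 0.799 and 0.875 in OCsEo and between 0.886 and 0.983 in OCsEoS over 19 alternative fits. That of Lgals9 went past both cut-offs in 3 of them, for OCsEo and OCsEoS alike. They were the replicate block (log2 fold change 0.52 in both), the fit without OCsCtr 4, and that without OCsCtr 4 and OCsEo 4. The last of these was chosen after seeing the data. As for other counts of members against the control, nothing is read from this. Of 15 calls of list genes, 7 held in every fit. Without the fold cut-off the genes called were 2382, 3151 and 81 in OCsEo against OCsCtr, OCsEoS against OCsCtr and OCsEoS against OCsEo, in place of 804, 1058 and 52, and the partner genes called were 17, 24 and 2 in place of 6, 6 and 0. Leaving out 1 library gave 664 to 980, 849 to 1345 and 17 to 62 genes, and 4 to 7, 3 to 9 and 0 partner genes. Without OCsEo 2 or 3 or OCsEoS 3 or 4, the third count was 27, 34, 17 and 34. With no filter on low counts it was 100, and with DESeq2 78. The main fit did not pair same-numbered libraries. The r of their deviations was −0.0435 to 0.0945 over 12 pairs, which reuse the same libraries across the 3 comparisons. In 9 of these 12, however, the best match had the same number. Whether same-numbered cultures had a common source is not given in the labels, and these values do not settle it. With the replicate block the counts were 854, 1108 and 67 genes, 6, 6 and 0 partner genes and 0 members between the stimulated groups, where Lgals3 had an adjusted p of 0.0561 (edgeR). Counting error was small for all 5 genes, and the 4 cultures per group limit the precision.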
